A study of Mus musculus with 6 samples.

Results

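The genes described here are 90 mouse gene models with a predicted-gene symbol (Gm followed by digits) or a RIKEN clone symbol (ending in Rik) whose RNA level differed at least 3-fold between retinas labelled Samd7 KO and wild-type retinas. They were picked from 24091 such symbols, Gm33590 aside, among the 49997 genes of the authors' deposited table. The rule took models whose larger group mean was at least 30 normalized reads (gene reads divided by 1 size factor per library), whose ratio of KO mean to wild-type mean, with 1 added to each, was at least 3 or at most the inverse of 3, and whose KO and wild-type libraries did not overlap. Of 3060 models at that level, 60 were higher in the KO libraries (1.96%) and 30 were lower (0.98%). The groups did not overlap in 27.7% of the 3060 models, whatever the size of the difference. Since the KO and wild-type values themselves chose the 90 genes, those values are given below as a description with no test. The tests concern the genes with established names that lie beside or over them, whose own values the rule did not use. Genes that overlap a model may share reads with it, so their tests are not independent of the rule.

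RNA was sequenced from 6 male mouse retinas, 1 retina per library. The 3 KO retinas carry the genotype label Samd7 knockout (-10A) and were taken at postnatal day 31, and the 3 controls are labelled c57Bl6/j wt and were taken at postnatal day 36. The strain of the KO mice is not in the labels, so that genotype, age and any difference of strain cannot be told apart. Every p-value below rests on the spread between these 6 retinas alone. Recovered reads per library ran from 44231112 to 62813549. Samd7 itself had 57837, 45755 and 44932 normalized reads under the KO label and 6349, 8141 and 8122 in the wild-type libraries, 6.57-fold higher in the former (limma adjusted p = 1.54e-08), so its RNA level does not check the genotype, and KO below means the label.

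Most models with such symbols are transcripts that were found by cDNA sequencing or by genome annotation and have no assigned function. Many are long noncoding RNAs, which are transcribed, spliced and polyadenylated like messenger RNAs but hold no long open reading frame, and others are pseudogenes, which are copies of genes that no longer code for the intact protein. Some noncoding RNAs act on the gene next to them, and others only mark that the surrounding chromatin is transcribed. Samd7 is a sterile alpha motif protein of photoreceptors that works with Polycomb group proteins, which keep genes silent through histone marks.

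Among the 60 rising genes RefSeq lists 52 long noncoding RNAs, 4 pseudogenes, 3 protein-coding genes (A930009A15Rik, Gm46430 and Gm5414) and 1 miscellaneous RNA (Gm42759). The 30 falling genes hold 22 long noncoding RNAs, 5 protein-coding genes (1700007K13Rik, 2610528A11Rik, Gm7827, A930018P22Rik and Gm44812) and 3 pseudogenes (Gm47647, Gm9522 and Gm9028). Predicted is therefore the symbol's form, and 8 of the 90 are annotated as coding. Of the 3060 models at the same level 45.1% were long noncoding RNAs, 40.5% pseudogenes and 11.0% coding. The rising genes lie on 16 chromosomes and the falling genes on 15. Among 14374 named genes at that level 130 passed the same rule as higher (0.904%) and 39 as lower (0.271%), and the groups did not overlap in 34.7%.

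**Figure D1:**
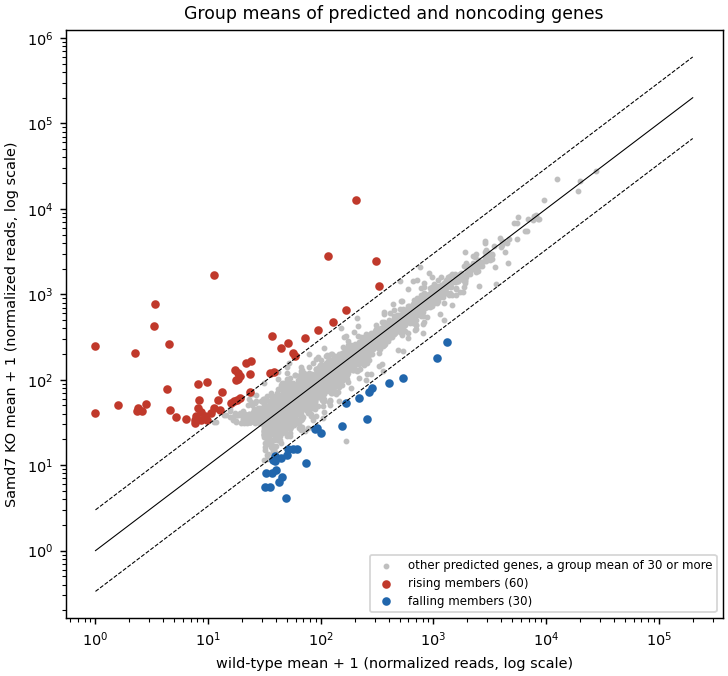
Each point is 1 predicted or RIKEN gene with a group mean of at least 30 normalized reads, with the wild-type mean plus 1 on the horizontal axis and the KO mean plus 1 on the vertical axis, both log scales. The dashed lines mark a ratio of 3 in either direction, red points are the 60 rising genes, blue points the 30 falling genes, and a grey point beyond a line had overlapping groups. A930009A15Rik stands highest among the red points, at a KO mean of 12568.

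Together the 60 rising genes took 26809 to 30039 normalized reads in the KO libraries and 1991 to 2292 in the wild-type libraries. Their ratios ran from 3.04 to 250 with a median of 5.52. A ratio of at least 10 was reached by 16 of them and 25 stayed under 5. In 27 of the 60 the wild-type mean was under 10 normalized reads, and in 10 it was at least 50. The 30 falling genes took 5008 to 6566 normalized reads in the wild-type libraries and 1140 to 1319 in the KO libraries, with ratios of wild type to KO from 3.05 to 11.7 and a median of 4.15. Only Gm10857 had a ratio of at least 10 with all libraries in.

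**Figure D2:**
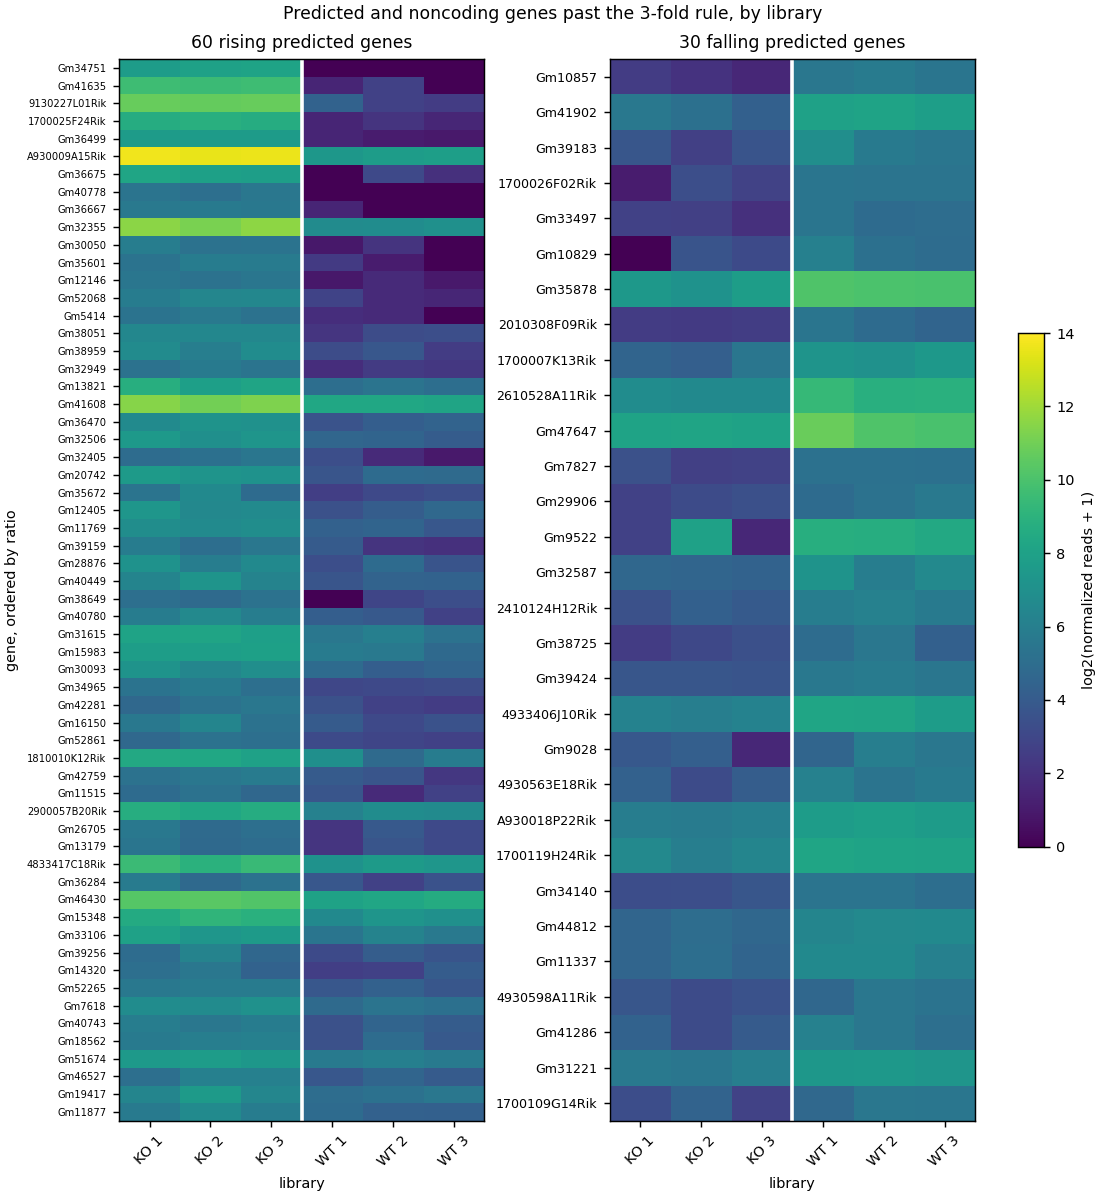
Rows are the 60 rising genes (left) and the 30 falling genes (right), ordered by the ratio, columns are the 6 libraries, and colour is log2(normalized reads + 1). The white line parts KO from wild type; Gm9522 shows 1 KO library, KO 2, at 261 normalized reads while the other two KO libraries are at 5.64 and 1.92.

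Several rising genes were close to 0 in wild type and well read in KO. Gm34751, a long noncoding RNA (chr8:88381590-88388959, minus strand), was read at 209, 261 and 277 normalized reads in the KO libraries and at 0 in each of the wild-type libraries. With 725 reads against 0, and 3 reads over the wild-type group as the floor, it was at least 260-fold higher. Gm41635 (chr17:83545680-83550593) had 791, 740.3 and 801 normalized reads in the KO libraries and 1.71, 5.41 and 0 in the wild-type libraries. Its KO libraries lay close together, and the few wild-type reads, 7 in all, set its ratio of 231, which was 419 without WT 2. 9130227L01Rik (chr1:55931241-55972098, plus strand) had 1709, 1635 and 1685 normalized reads under KO and 20.5, 5.41 and 4.71 in wild type. WT 1 was the highest of the controls, and the ratio of 149.5 became 277 without it. Gm32949 (chr1:55888682-55917219, plus strand), 14021 bases before 9130227L01Rik on the same strand, rose from a mean of 3.55 ± 0.900 to 42.8 ± 7.09 normalized reads (SD, n = 3 per group).

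1700025F24Rik (chr10:119413444-119426864, plus strand) was read at 404, 459 and 412 normalized reads in the KO libraries and at 1.71, 3.25 and 1.88 in the wild-type libraries, a ratio of 129.9. It starts 1622 bases from Gm40778 (chr10:119399130-119411821, minus strand), which runs the other way. Gm40778 had 40.6, 34.2 and 46.2 normalized reads in the KO libraries and 0 in each wild-type library, at least 42.0-fold higher by the floor of 3 reads over the group. Both transcripts of this divergent pair were thus close to silent in all wild-type retinas. A further rising RNA, Gm40780 (chr10:119629735-119646813), lies 202870 bases beyond 1700025F24Rik and over Grip1, which codes for a scaffold protein that binds AMPA-type glutamate receptors. Gm40780 had 58.7, 95.4 and 59.7 normalized reads in KO and 17.1, 14.1 and 5.65 in wild type. Grip1 was 1.401-fold higher in the KO libraries (limma log2 difference 0.48 ± 0.08 SE, adjusted p = 0.00244).

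Gm36499 (chr4:120309702-120312945) was read at 202, 203 and 208 normalized reads in the KO libraries and at 1.71, 1.08 and 0.941 in the wild-type libraries. Those wild-type levels stand for 1 or 2 reads per library, 4 in all, and its ratio was 91.5. Gm36675 (chr7:136153158-136160317) had 301, 246 and 231 normalized reads under KO and 0, 7.58 and 2.82 in wild type, with a ratio of 58.3 that was 108 without WT 2. Gm36667 (chr5:133534524-133598426, minus strand) was counted at 144 reads in the KO libraries and at 2 in wild type. The ratio of these summed reads, each sum divided by its group's summed size factors, was 78.6 with a 95% exact counting interval from 21.4 to 655, which covers counting error only. With 1 added to each mean the ratio was 32.4, and 50.9 without WT 1, which held the wild-type reads.

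The gene with the most reads was A930009A15Rik (chr10:115569986-115582454, plus strand), which RefSeq annotates as protein coding. It was read at 13399, 11743 and 12562 normalized reads in the KO libraries and at 171, 213 and 226 in the wild-type libraries, means of 12568 ± 828 and 203 ± 28.7 (SD, n = 3 per group). Every KO library lay far above every control, with little spread in either group, and the ratio was 61.5. Its gene model overlaps Lgr5, which codes for a receptor of R-spondins, on the opposite strand. Lgr5 was 2.47-fold higher in the KO libraries (limma log2 difference 1.30 ± 0.13 SE, adjusted p = 3.48e-05), at 1276, 1761 and 1455 normalized reads against 624, 535 and 658. Its KO libraries lay above all of its controls but far below those of A930009A15Rik. The labels and headers do not name the strand setting of the counting, so reads of overlapping genes on opposite strands cannot be told apart, for this pair and for all such pairs below.

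The start windows of 2 of the most read rising genes are shown because both are poor in CpG dinucleotides, which mark the starts of many broadly active genes. The windows run from 250 bases before to 50 bases after the RefSeq start (GRCm38.p6), 5′ to 3′ along the gene, and capitals mark CpG dinucleotides. The window of 9130227L01Rik (chr1:55930991-55931290, plus strand) holds 0 CpGs and that of A930009A15Rik (chr10:115569767-115570066, plus strand) holds 3.
9130227L01Rik: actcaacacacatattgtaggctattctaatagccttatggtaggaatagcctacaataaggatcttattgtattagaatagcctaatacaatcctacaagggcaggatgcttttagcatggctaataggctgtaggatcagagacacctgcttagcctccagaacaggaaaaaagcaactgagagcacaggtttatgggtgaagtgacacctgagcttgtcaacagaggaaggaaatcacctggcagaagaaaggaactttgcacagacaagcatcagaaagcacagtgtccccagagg
A930009A15Rik: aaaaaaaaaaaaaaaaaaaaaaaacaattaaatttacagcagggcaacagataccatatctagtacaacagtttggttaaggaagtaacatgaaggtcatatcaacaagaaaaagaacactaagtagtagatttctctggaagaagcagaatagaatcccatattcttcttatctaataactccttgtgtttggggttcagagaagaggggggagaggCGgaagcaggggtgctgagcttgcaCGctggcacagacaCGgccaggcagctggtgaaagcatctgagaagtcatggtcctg

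Gm32355 (chr15:73990025-73994048, plus strand) was read at 2982, 2339 and 3110.2 normalized reads in the KO libraries and at 105, 113 and 129 in wild type, a ratio of 24.1. The groups were far apart, with KO 2 the lowest of the KO libraries. Its end lies 53 bases from the end of Gm32405 (chr15:73994102-74000010, minus strand) on the other strand, which had a mean of 35.97 ± 7.01 normalized reads in KO and 4.17 ± 4.58 in wild type (SD, n = 3 per group). The ratio of Gm32405 was 7.15, and 14.5 without WT 1. Gm41608 (chr17:66506346-66524541, plus strand) had 2769, 2110.0 and 2478 normalized reads in the KO libraries and 320.0, 319 and 283 in wild type. It overlaps Rab12, a small GTPase, on the opposite strand, and Rab12 was not called (limma log2 difference 0.13 ± 0.08 SE, adjusted p = 0.35). Gm20742 (chr17:66192415-66199890, plus strand), 306455 bases before Gm41608 on the same strand, had a ratio of 6.88. Gm46430 (chr13:74604421-74617966, minus strand), annotated as coding, had 1245, 1347 and 1195 normalized reads in KO and 269.5, 309.5 and 397 in wild type, a ratio of 3.87. Gm15348 (chr8:12706944-12719127, minus strand) had 370.2, 571 and 478 normalized reads in KO and 97.5, 155 and 132 in wild type, a ratio of 3.68. Both were well read in the controls too.

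A pair of rising genes lay beside a cone gene. Gm38959 (chr11:95854987-95858451, minus strand) and 4833417C18Rik (chr11:95858817-95861046, plus strand) start 365 bases apart and run away from each other between Gngt2, the gamma subunit of cone transducin, and B4galnt2, a glycosyltransferase. Gm38959 was read at 107, 63.2 and 109.7 normalized reads in the KO libraries and at 8.56, 12.99 and 4.71 in wild type, a ratio of 9.68. 4833417C18Rik was read at 754, 484 and 727 in KO and at 139, 196 and 164 in wild type, a ratio of 3.93. In both RNAs KO 2 was the lowest of the KO libraries and WT 2 the highest of the controls. Gngt2, 9252 bases from Gm38959, had 48604, 42429 and 42044 normalized reads in KO and 4395, 5171 and 5023 in wild type, 9.12-fold higher (limma log2 difference 3.19 ± 0.08 SE, adjusted p = 2.28e-10). B4galnt2, 2512 bases from 4833417C18Rik, had 177, 115 and 138 in KO and 19.7, 21.6 and 23.5 in wild type, 6.63-fold higher (limma log2 difference 2.65 ± 0.23 SE, adjusted p = 9.81e-06). Gngt2 and B4galnt2, whose values the rule did not use, stood higher in every KO library than in any control and were called. For both RNAs the rule itself required this separation. The tRNA gene n-TQttg6, which lies within 4833417C18Rik, was too low to be tested, at 2.26, 2.07 and 6.74 normalized reads in KO and 0, 2.16 and 0 in wild type, and its groups overlapped.

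The windows of this divergent pair are rich in CpGs, with 13 in that of Gm38959 (chr11:95858402-95858701, minus strand) and 19 in that of 4833417C18Rik (chr11:95858567-95858866, plus strand), and they share 135 bases. They are shown because 1 stretch of sequence lies before both rising RNAs.
Gm38959: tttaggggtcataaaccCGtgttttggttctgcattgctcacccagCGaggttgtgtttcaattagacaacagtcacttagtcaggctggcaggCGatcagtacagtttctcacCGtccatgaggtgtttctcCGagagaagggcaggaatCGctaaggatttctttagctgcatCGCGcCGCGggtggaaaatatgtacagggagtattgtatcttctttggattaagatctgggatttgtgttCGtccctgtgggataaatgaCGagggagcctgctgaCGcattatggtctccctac
4833417C18Rik: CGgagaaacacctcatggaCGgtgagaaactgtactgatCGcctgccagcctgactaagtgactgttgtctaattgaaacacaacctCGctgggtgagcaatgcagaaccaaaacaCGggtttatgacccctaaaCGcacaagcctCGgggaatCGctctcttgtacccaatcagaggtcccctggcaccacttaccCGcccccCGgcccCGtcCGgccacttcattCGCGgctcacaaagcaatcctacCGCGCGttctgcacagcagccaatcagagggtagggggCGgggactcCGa

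Gm35601 (chr1:172632980-172658377) lies 5 bases from Dusp23, a dual-specificity phosphatase, and was read at 39.5, 57.03 and 55.8 normalized reads in KO and at 4.28, 1.08 and 0 in wild type. Its ratio of 18.6 was 33.6 without WT 1, the control with the most reads. Dusp23 had 4173, 3378 and 4021 normalized reads in KO and 451, 489 and 393 in wild type, 8.68-fold higher (limma log2 difference 3.11 ± 0.11 SE, adjusted p = 4.66e-09). On the other side, 39.7 kb away, lies Crp, the C-reactive protein gene, and beyond it Gm38051 (chr1:172752935-172782907, plus strand), a pseudogene that rose from a mean of 7.16 ± 3.26 to 87.9 ± 0.853 normalized reads (SD, n = 3 per group). Crp had 259.6, 319 and 298 normalized reads in KO and 9.41, 4.33 and 4.71 in wild type, 47.6-fold higher (limma log2 difference 5.42 ± 0.29 SE, adjusted p = 1.27e-07). It was the largest difference among the called genes beside or over the 90.

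Gm12405 (chr4:41642975-41649726, plus strand) starts 2.67 kb from Enho, which codes for the secreted peptide adropin, in a divergent arrangement. Gm12405 had 161, 91.2 and 105 normalized reads in KO and 10.3, 16.2 and 25.4 in wild type, and Enho was 1.92-fold higher (limma log2 difference 0.94 ± 0.07 SE, adjusted p = 2.25e-06). Gm11515 (chr11:95180965-95259963, minus strand) starts 1.56 kb from Tac4, a tachykinin gene, also in a divergent arrangement. Gm11515 had 28.2, 37.3 and 25.02 in KO and 11.98, 2.16 and 5.65 in wild type, a ratio of 4.11 that was 6.36 without WT 1. Tac4 was 3.42-fold higher (limma log2 difference 1.72 ± 0.25 SE, adjusted p = 7.63e-04). Gm7618 (chr6:148900861-148901169, minus strand), a pseudogene 4.60 kb from Caprin2 on the same strand, had 113, 107 and 135 in KO and 27.4, 41.1 and 34.8 in wild type, and Caprin2, an RNA-binding protein, was 2.65-fold higher (limma log2 difference 1.40 ± 0.10 SE, adjusted p = 2.41e-06). Foxo6os, an annotated antisense RNA of Foxo6 that lies 5.81 kb from Gm36499, was 8.31-fold higher (limma log2 difference 3.03 ± 0.18 SE, adjusted p = 4.31e-07). In each of these pairs the named gene lay higher in all KO libraries than in all controls, which the rule required of the predicted gene.

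**Figure D3:**
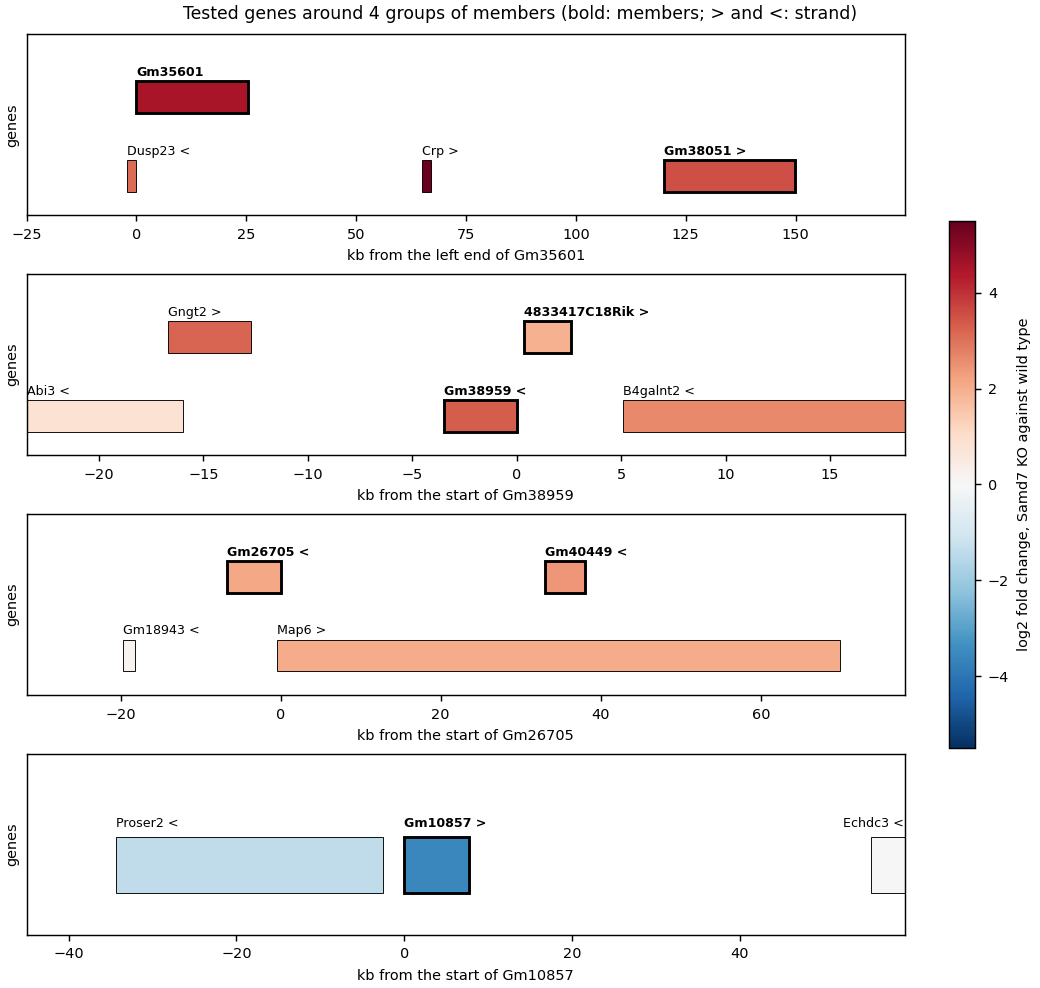
Boxes are tested genes around 4 groups of genes (those in bold passed the rule), placed by distance in kb, with > and < for the strand and colour for the limma log2 fold change of KO against wild type. Gngt2, B4galnt2, Dusp23, Crp and Map6 are red like the predicted genes beside them, and Proser2 is blue beside Gm10857.

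Of the 60 rising genes 28 overlapped a named gene, and 22 of the 28 overlapped a gene that was called higher. Map6, a microtubule-stabilizing protein, is overlapped by a pair of them on the opposite strand, Gm26705 at its start and Gm40449 within it. Gm26705 (chr7:99260481-99267218, minus strand) had 47.4, 27.99 and 33.7 normalized reads in KO and 3.42, 14.1 and 7.53 in wild type. Gm40449 (chr7:99300274-99305242, minus strand) had 77.9, 151 and 76.02 in KO and 11.98, 20.6 and 19.8 in wild type. Map6 had 33686, 33107 and 38939 and 9448, 8235 and 8358, 4.06-fold higher (limma log2 difference 2.02 ± 0.08 SE, adjusted p = 1.01e-08), so its reads exceeded those of either RNA by far in both groups.

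Other kinases, channels and enzymes lay under rising RNAs. Gm30050 (chr13:103097060-103100912, plus strand), opposite to the kinase gene Mast4, had 59.8, 38.4 and 39.5 normalized reads in KO and 0.856, 3.25 and 0 in wild type, a ratio of 19.8 that was 32.8 without WT 2. Gm36470 (chr5:3289980-3343559, minus strand), opposite to Cdk6, a kinase of the cell cycle, had 104, 147 and 137 in KO and 11.1, 17.3 and 20.7 in wild type. Gm12146 (chr11:43195975-43224445, minus strand), opposite to Atp10b, a phospholipid-transporting ATPase, had 44.01, 38.4 and 43.3 in KO and 0.856, 2.16 and 0.941 in wild type. The named genes rose with them. Mast4 was 3.63-fold higher (limma log2 difference 1.84 ± 0.14 SE, adjusted p = 3.26e-06) and Cdk6 4.004-fold (limma log2 difference 2.001 ± 0.13 SE, adjusted p = 7.12e-07). Atp10b was read at 54.2, 79.8 and 51.97 normalized reads in KO and at 0, 2.16 and 1.88 in wild type, 45.95-fold higher and 30.6-fold without WT 1 (limma adjusted p = 4.44e-05).

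Gm35672 (chr13:32008430-32113133, plus strand), opposite to Gmds, an enzyme of GDP-fucose synthesis, had 40.6, 99.5 and 28.9 normalized reads in KO and 5.13, 7.58 and 9.41 in wild type. KO 2 stood well above the other KO libraries, and the ratio of 6.85 was 4.27 without it. Gmds had 1807, 1716 and 1736 and 339, 323 and 316, 5.38-fold higher with no such spread (limma log2 difference 2.42 ± 0.10 SE, adjusted p = 9.09e-09). Gm11877 (chr4:19298260-19299383, plus strand) is a pseudogene model inside Cngb3, a subunit of the cone cyclic nucleotide-gated channel, on the same strand. It had 50.8, 104 and 56.8 normalized reads in KO and 29.1, 19.5 and 18.8 in wild type, and Cngb3 had 5374, 6732 and 5657 and 876, 769 and 734, 7.46-fold higher (limma log2 difference 2.90 ± 0.10 SE, adjusted p = 4.66e-09). Since this pair shares its strand, reads of Cngb3 introns would also fall within the model. How many did so was not tested. Gm52068 (chr13:54328903-54334125, minus strand) overlaps LOC115488208 on the same strand and Cplx2, which binds the synaptic vesicle fusion complex, on the other. It had 57.6, 83.98 and 87.6 in KO and 5.99, 2.16 and 1.88 in wild type, while LOC115488208 was 5.75-fold (limma adjusted p = 9.68e-07) and Cplx2 1.68-fold higher (limma adjusted p = 2.51e-05). Gm52068 and LOC115488208 may share reads where they overlap, which was not tested either.

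Gm42759 (chr5:98030650-98031637, plus strand), opposite to the collagen-binding receptor gene Antxr2, had 37.2, 45.6 and 55.8 normalized reads in KO and 15.4, 11.9 and 3.77 in wild type. Gm42281 (chr4:46621211-46628842, plus strand), opposite to Tbc1d2, a regulator of Rab GTPases, had 25.96, 37.3 and 46.2 in KO and 10.3, 5.41 and 4.71 in wild type. Gm46527 (chr15:84430816-84441810, plus strand), opposite to Shisal1, had 33.9, 67.4 and 67.4 in KO and 12.8, 22.7 and 15.1 in wild type. The rule required the lowest KO library of these RNAs to lie above the highest control, and for Gm46527 the gap was small. Antxr2 was 6.06-fold (limma adjusted p = 2.21e-07), Tbc1d2 4.97-fold (limma adjusted p = 1.62e-05) and Shisal1 3.23-fold higher (limma adjusted p = 6.07e-07).

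Other overlapped genes were 1.63- to 2.01-fold higher, under RNAs that the rule took only at a ratio of at least 3. Gm33106 (chr4:49595839-49599772, plus strand), opposite to Pgap4, an enzyme that modifies GPI anchors, had 261, 163 and 198 normalized reads in KO and 41.9, 75.8 and 49.9 in wild type, and Pgap4 was 2.01-fold higher (limma adjusted p = 2.73e-06). Gm11769 (chr11:120150407-120152721, plus strand), opposite to the amino acid transporter gene Slc38a10, had 114, 103 and 114 in KO and 19.7, 21.6 and 13.2 in wild type, and Slc38a10 was 1.91-fold higher (limma adjusted p = 7.31e-06). 2900057B20Rik (chr18:76091557-76098471, minus strand), opposite to the zinc finger gene Zbtb7c, had 428, 318 and 409.9 in KO and 69.3, 110.4 and 103 in wild type, and Zbtb7c was 1.93-fold higher (limma adjusted p = 3.50e-04). Each of these RNAs was read in all controls. Gm51674 (chr9:50697871-50706670, plus strand), opposite to Dixdc1, a protein of Wnt signalling, had 179, 209 and 170.3 in KO and 53.9, 64.9 and 53.7 in wild type, and Dixdc1 was 1.88-fold higher (limma adjusted p = 1.14e-05). Gm16150 (chr1:38219302-38247651, plus strand), opposite to the nuclear protein gene Aff3, had 47.4, 82.9 and 38.5 in KO and 15.4, 7.58 and 10.4 in wild type, and Aff3 was 1.84-fold higher (limma adjusted p = 0.00152). Gm19417 (chr4:97840840-97869009, minus strand), opposite to the transcription factor gene Nfia, had 82.4, 200.1 and 83.7 in KO and 31.7, 35.7 and 45.2 in wild type, and Nfia was 1.63-fold higher (limma adjusted p = 0.00231). KO 2 was the highest library for Gm16150 and Gm19417, and also for Aff3 and Nfia.

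The smallest changes of overlapped genes that still passed the test were those of Tmcc3, Atxn7l1 and Ppm1h. Gm40743 (chr10:94512277-94514879, minus strand) had 59.8, 45.6 and 58.7 normalized reads in KO and 10.3, 21.6 and 16 in wild type, and Tmcc3 on the opposite strand was 1.38-fold higher (limma adjusted p = 0.00531). Gm38649 (chr12:33252441-33258286, minus strand) had 33.9, 27.99 and 38.5 in KO and 0, 6.49 and 9.41 in wild type, and Atxn7l1 on the opposite strand was 1.298-fold higher (limma adjusted p = 0.0122). Gm36284 (chr10:122583975-122678741, minus strand) had 56.4, 26.96 and 37.5 in KO and 12.8, 5.41 and 10.4 in wild type, and Ppm1h, a phosphatase gene on the opposite strand, was 1.23-fold higher (limma adjusted p = 0.0331). The call of Atxn7l1 ended without KO 3 and without WT 3, and that of Ppm1h without KO 2, KO 3, WT 2 or WT 3; over all alternatives their adjusted p reached 0.0717 and 0.181. Asic4 over Gm32506 and Frmd4a over Gm13179 were not called (limma adjusted p = 0.601 and 0.21).

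Further called genes lay up to 100 kb from rising genes. Maf, a transcription factor gene 58.4 kb from Gm39256, was read at 1946, 1322 and 1372 normalized reads in KO and at 170.3, 143 and 193 in wild type, 9.17-fold higher (limma adjusted p = 1.07e-07). Gm39256 itself had a ratio of 3.51, which was 2.26 without KO 2. Kcng3, a potassium channel subunit 23.4 kb from Gm41635, was 3.63-fold higher (limma adjusted p = 0.00115). Pcdh1, a protocadherin 79.9 kb from Gm30093, was 2.57-fold higher (limma adjusted p = 4.45e-06). The KO and wild-type libraries of these 3 genes did not overlap. Erap1, a peptidase of antigen processing beside Gm46430, was 2.21-fold (limma adjusted p = 1.84e-04) and Bahcc1 beside Gm11769 was 1.84-fold higher (limma adjusted p = 1.85e-04). Brd7, a bromodomain protein beside Gm34751, was 1.75-fold (limma adjusted p = 2.12e-05) and Serpinh1, a collagen chaperone beside Gm40449, 1.54-fold higher (limma adjusted p = 8.59e-04). Cebpb beside Gm14320 was 1.48-fold (limma adjusted p = 0.0426) and the Polycomb group gene Scmh1 beside Gm36499 1.26-fold higher (limma adjusted p = 0.0188). The call of Cebpb ended without KO 1, WT 2 or WT 3 and that of Scmh1 without KO 3, WT 2 or WT 3, and over all alternatives their adjusted p reached 0.156 and 0.0977.

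Counted together, 64 named genes were the nearest on either side of a rising gene within 100 kb, without overlap. Of these 44 passed the filter on low values, 18 were called higher (40.9%) and 0 lower in limma, with a median log2 fold change of 0.32. Among all named genes tested 7.64% were called higher and 5.61% lower. Among the nearest named genes of the other predicted models at the same level, 8.04% of 2772 were higher and 6.13% lower. Within 10 kb of a rising gene 7 of 12 tested genes were higher, against 6.52% of 1104 within 10 kb of the other predicted models. Over the 60 rising genes 25 named genes were tested, 22 were called higher (88%) and 0 lower, with a median log2 fold change of 0.94. Over the other predicted models 9.74% of 1140 overlapped genes were higher and 6.14% lower. Since overlapping genes may share reads, the counts of overlapped genes are not independent of the rule that chose the models. Grip1 is counted both as beside 1700025F24Rik and as overlapping Gm40780. Beside the counts of 0, unadjusted p-values under 0.05 gave 1 lower neighbour and 0 lower overlapped genes. EdgeR and DESeq2 called 0 lower in both sets, and limma-voom 1 lower neighbour. At least 1 gene called higher lay beside or over 38 of the 60 rising genes. No matching share is given for the other predicted models.

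**Figure D4:**
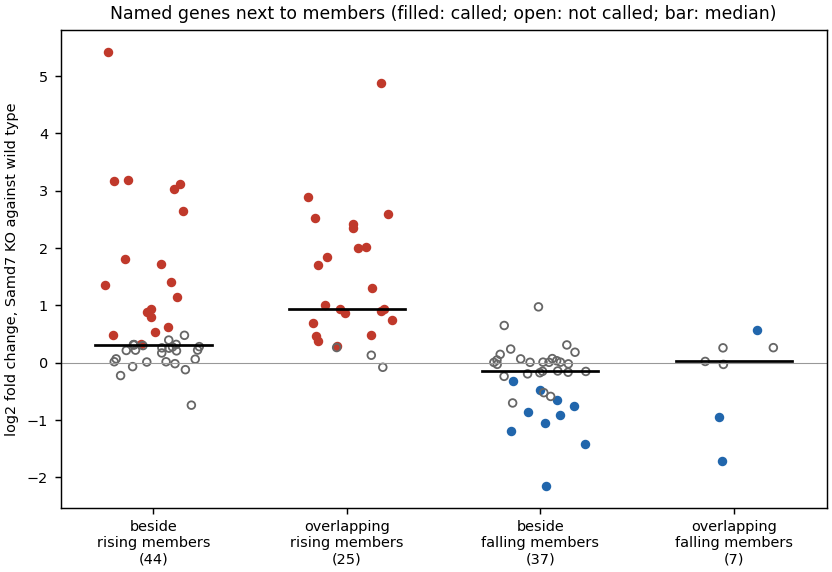
Each circle is 1 named gene beside (within 100 kb, no overlap) or over a predicted gene that passed the rule, and the vertical axis is its limma log2 fold change, KO against wild type. Filled circles passed an adjusted p of 0.05 and bars are medians, at 0.32 beside and 0.94 over rising genes, and at -0.15 beside and 0.02 over falling genes.

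The rising genes not described above have no called gene over them or within 10 kb. Gm5414 (chr15:101624028-101628252, minus strand), one of the coding models, had a ratio of 16.7 from a wild-type mean of 1.58 normalized reads. Gm13821 (chr5:114833841-114846594, minus strand) had a ratio of 8.79 and Gm32506 (chr1:75455521-75459522, minus strand) one of 7.28. Gm39159, Gm28876 and 1810010K12Rik had ratios of 5.72, 5.71 and 4.32, which moved to 11.6 without WT 1, 8.87 without WT 2 and 7.03 without WT 1. 1810010K12Rik lies 766 bases from Ptf1a, the amacrine and horizontal cell factor, whose level was too low to be tested. Gm15983 (chr16:5255963-5286341, plus strand) and Gm52265 (chr16:5288109-5306664, minus strand) end 1767 bases apart on opposite strands and had ratios of 5.23 and 3.41. Gm15983 starts 6 bases from Eef2kmt, which was not called (limma log2 difference 0.21 ± 0.09 SE, adjusted p = 0.184). Gm31615 and Gm30093 had ratios of 5.300 and 5.02, and Gm34965, Gm52861 and Gm13179 ratios of 4.904, 4.42 and 3.97. Gm14320 had a ratio of 3.48, 5.46 without WT 3, and the pseudogene Gm18562 one of 3.22.

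The rising genes differed in how evenly the KO retinas showed them. The highest KO library was 1.45 times the lowest in the median gene. It was at least 2 times the lowest in 8 of the 60, and 3.45 times in Gm35672. In A930009A15Rik and 9130227L01Rik it was 1.14 and 1.04 times.

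Turning to the falling genes, Gm10857 (chr2:6132869-6140570, plus strand) showed the largest ratio. It was read at 4.51, 3.11 and 1.92 normalized reads in the KO libraries and at 46.2, 55.2 and 42.4 in the wild-type libraries, a ratio of wild type to KO of 11.7. The groups were far apart, on 9 reads in all KO libraries against 150 in wild type. It starts 2.58 kb from Proser2, which runs the other way. Proser2 had 1439, 1317 and 1502 normalized reads in KO and 4785, 3271 and 3455 in wild type, 2.704-fold lower in KO (limma log2 difference -1.42 ± 0.13 SE, adjusted p = 1.62e-05).

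Gm35878 (chr11:119105138-119109184, plus strand) was read at 176, 141 and 224 normalized reads in KO and at 1151, 1034 and 1027 in wild type, a ratio of 5.91. 2610528A11Rik (chr14:37102140-37110101, minus strand), annotated as coding, had 112, 98.5 and 98.2 in KO and 661, 461 and 469 in wild type, a ratio of 5.12. Both were well read in every control, and no KO library came near a control. Cdhr1, a photoreceptor cadherin 3792 bases from 2610528A11Rik, was not called, with a log2 fold change of 0.15 ± 0.09 (SE, limma adjusted p = 0.35).

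Their start windows are shown as those of the most read falling genes with a window in RefSeq, again with CpGs in capitals. The window of Gm35878 (chr11:119104888-119105187, plus strand) holds 2 CpGs and that of 2610528A11Rik (chr14:37110052-37110351, minus strand) holds 8.
Gm35878: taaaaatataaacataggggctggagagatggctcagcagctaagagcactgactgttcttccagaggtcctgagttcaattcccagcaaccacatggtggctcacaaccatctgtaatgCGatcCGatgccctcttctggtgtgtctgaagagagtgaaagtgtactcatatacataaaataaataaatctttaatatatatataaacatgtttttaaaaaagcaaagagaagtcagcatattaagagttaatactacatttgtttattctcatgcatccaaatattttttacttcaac
2610528A11Rik: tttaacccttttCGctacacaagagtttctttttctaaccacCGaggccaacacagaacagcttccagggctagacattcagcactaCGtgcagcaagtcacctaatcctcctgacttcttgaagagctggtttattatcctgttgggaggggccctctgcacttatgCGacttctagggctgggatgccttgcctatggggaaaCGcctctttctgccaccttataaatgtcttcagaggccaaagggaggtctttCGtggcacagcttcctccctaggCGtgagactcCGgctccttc

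A pseudogene, Gm47647 (chr12:58923624-58925736, minus strand), had the highest wild-type mean of the falling genes. It was read at 273, 290.3 and 271 normalized reads in KO and at 1786, 1146 and 1001 in wild type, with WT 1 the highest control. The pseudogene Gm9522 (chr15:39180478-39181642, plus strand) was read at 5.64, 261 and 1.92 in KO and at 443, 422 and 346 in wild type. KO 2 stood apart, below every control but far above the other two KO libraries. Its ratio was 4.47 with all libraries and 84.6 without KO 2, and it was the single one of the 90 genes with an adjusted p above 0.05 in the authors' deposited table, at 0.449. The third pseudogene, Gm9028, had a ratio of 3.71 at a wild-type mean of 43.7. Reads of a pseudogene can be shared with the gene it was copied from, so these 3 levels are uncertain. The same holds for the 4 rising pseudogenes, Gm38051, Gm7618, Gm18562 and Gm11877.

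Gm41902 (chrX:152506553-152514599), on the X chromosome, was read at 47.4, 35.3 and 18.3 normalized reads in KO and at 257, 282 and 227 in wild type, a ratio of 7.399. 2010308F09Rik (chrX:13234641-13247733, minus strand), also X-linked, had 4.51, 4.15 and 4.81 in KO and 41.9, 29.2 and 21.6 in wild type, a ratio of 5.82. Gm33497 (chr15:35200871-35270303, plus strand) had 5.64, 5.18 and 2.89 in KO and 41.9, 29.2 and 31.1 in wild type, a ratio of 6.29. In none of these did a KO library come near the controls, and none had a called named gene within 100 kb. 1700026F02Rik (chr8:71006728-71026755, minus strand) had 1.13, 9.33 and 5.77 in KO and 41.9, 41.1 and 41.4 in wild type, a ratio of 6.63. The coding model Gm7827, which lies 64945 bases from it, had a ratio of 4.58, so that this was the single pair of falling genes next to each other.

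Gm39183 (chr8:65040966-65079776, plus strand) was read at 12.4, 5.18 and 11.5 normalized reads in KO and at 121, 50.9 and 44.2 in wild type. WT 1 was the highest control, and the ratio of 6.83 was 4.53 without it. Apela, a peptide ligand of the apelin receptor that starts 3.63 kb away, had 103, 83.98 and 97.2 in KO and 377, 179 and 152 in wild type, with WT 1 again the highest. It was 2.49-fold lower in KO (limma log2 difference -1.19 ± 0.28 SE, adjusted p = 0.0167), and this call ended without KO 2, with an adjusted p of up to 0.0575 over all alternatives. Gm38725 (chr5:137478036-137480464, plus strand) had 4.51, 7.26 and 9.62 in KO and 29.9, 45.5 and 18.8 in wild type. It lies 971 bases from Zan, the sperm protein zonadhesin, in a divergent arrangement, and Zan had 188, 148 and 122 in KO and 765, 645 and 612 in wild type, 4.41-fold lower (limma log2 difference -2.15 ± 0.17 SE, adjusted p = 3.96e-06).

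Gm10829 (chr2:35841479-35847224, plus strand) overlaps Ttll11, an enzyme that adds glutamates to tubulin, on the opposite strand. It had 0, 11.4 and 7.699 normalized reads in KO and 67.6, 34.6 and 30.1 in wild type, a ratio of 6.12 that was 9.30 without KO 2. Ttll11 had 931, 894 and 905 in KO and 3618, 2834 and 2628 in wild type, 3.33-fold lower (limma log2 difference -1.72 ± 0.11 SE, adjusted p = 1.03e-06). Gm39424 (chr11:106999469-107012237, plus strand) overlaps Kpna2, a nuclear import receptor, on the opposite strand and had 12.4, 12.4 and 11.5 in KO and 47.9, 55.2 and 43.3 in wild type. Kpna2 was 1.93-fold lower (limma log2 difference -0.95 ± 0.08 SE, adjusted p = 5.15e-06). 1700119H24Rik (chr16:34935855-34939329, minus strand) is the exception among the called pairs. It had 95.9, 62.2 and 80.8 in KO and 300.3, 274 and 269 in wild type, while Mylk, the myosin light chain kinase gene on the opposite strand, was 1.48-fold higher in KO (limma log2 difference 0.57 ± 0.10 SE, adjusted p = 0.00233). Mylk had 4893, 5999 and 5479 normalized reads in KO and 4125, 3397 and 3518 in wild type, so the antisense model and the gene under it moved in opposite directions.

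Beside other falling genes the named gene fell with the RNA. A930018P22Rik (chr2:104122769-104124746, plus strand), a coding model, had 60.9, 55.99 and 65.4 normalized reads in KO and 211, 239 and 204 in wild type, and Cd59a, an inhibitor of complement 7.36 kb away, was 1.696-fold lower (limma adjusted p = 1.29e-04). Gm31221 (chr6:30178155-30181830, plus strand) had 49.7, 44.6 and 61.6 in KO and 167, 179 and 154 in wild type, and BB283400, which ends 108 bases before it on the same strand, was 1.86-fold lower (limma adjusted p = 0.00117). 2410124H12Rik (chr16:92478742-92497370, plus strand) had 10.2, 18.7 and 14.4 in KO and 59.04, 71.4 and 52.7 in wild type, and Clic6, of the chloride intracellular channel family, 776 bases away on the same strand, was 1.83-fold lower (limma adjusted p = 0.00762). The groups of each of these genes lay apart, which the rule required of the predicted models. Gm11337 (chr13:23794402-23804640, minus strand) had 22.6, 32.1 and 22.1 in KO and 98.4, 97.4 and 67.8 in wild type, and Slc17a2, a phosphate transporter gene 2.30 kb away, was 2.11-fold lower (limma adjusted p = 0.0228). 4930563E18Rik (chr18:10706860-10711832, plus strand) had 19.2, 8.29 and 16.4 in KO and 71.01, 41.1 and 53.7 in wild type, and Abhd3, which starts 76 bases away on the other strand, was 1.25-fold lower (limma adjusted p = 0.0453). 4933406J10Rik (chr7:82743346-82755644, minus strand) had 73.4, 63.2 and 74.1 in KO and 298, 288 and 216 in wild type, and Saxo2, 94.8 kb away, was 1.396-fold lower (limma adjusted p = 0.039). Gm34140 had a ratio of 3.49, and Synm, an intermediate filament gene 12.8 kb away, was 1.55-fold lower (limma adjusted p = 0.0121). These last 4 calls were weaker than those of Cd59a, BB283400 and Clic6. The call of Abhd3 ended with any 1 library left out, that of Saxo2 without KO 2, KO 3, WT 2 or WT 3, that of Slc17a2 without WT 1 or WT 3 and that of Synm without KO 3 or WT 3. Over all alternatives their adjusted p reached 0.188, 0.156, 0.111 and 0.0686.

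Of 48 named genes nearest to a falling gene within 100 kb, 37 were tested, 10 were called lower (27.03%) and 0 higher in limma, with a median log2 fold change of -0.15. The background was 5.61% lower among all named genes tested and 6.13% beside the other predicted models. Within 10 kb 8 of 14 tested genes were lower, against 6.61% of 1104 within 10 kb of the other predicted models. Over falling genes 7 named genes were tested, 2 lower and 1 higher. Beside the count of 0, unadjusted p-values under 0.05 gave 3 higher neighbours, edgeR called 0, DESeq2 1 and limma-voom 2. At least 1 gene called lower lay beside or over 12 of the 30 falling genes, with no matching share given for the other predicted models. The 10 calls became 6 without WT 3, and without KO 1 there were 10 lower and 3 higher. With values scaled to total reads 8 neighbours of falling genes were called lower and 2 higher.

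The remaining falling genes had no called named gene beside them. 1700007K13Rik (chr2:28462001-28466324, minus strand), a coding model, had a ratio of 5.402, and Mrps2, which it overlaps, was not called (limma log2 difference 0.02 ± 0.09 SE, adjusted p = 0.911). Gm29906, Gm32587 and the coding model Gm44812 had ratios of 4.48, 4.27 and 3.43. 4930598A11Rik and Gm41286 had ratios of 3.29 and 3.26, and 1700109G14Rik one of 3.05, 4.66 without KO 2. 4930598A11Rik starts 92 bases from Ggh, which was not called (limma log2 difference 0.07 ± 0.11 SE, adjusted p = 0.752).

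Some of the 90 genes lay close together. Counting neighbouring members of the set within 500 kb, there were 9 pairs of rising genes, 1 pair of falling genes and 1 pair of opposite direction, the rising 2900057B20Rik and the falling Gm9028, 125302 bases apart.

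All 90 genes passed the filter of the test (3 or more libraries at 10 normalized reads or above), and all were called in limma, where 7.94% of predicted genes tested were called, 4.03% higher and 3.91% lower. Nothing is read from that count, since the rule used the same contrast. By the authors' deposited table, all 60 rising and 29 of 30 falling genes have an adjusted p under 0.05 against no change. Against a log2 fold change of 1 those numbers are 34 and 10. Nothing is read from these counts either, since they rest on the same contrast, and the matching shares over all genes are not given here. Just inside the threshold of 3 stood Gm11877, Gm19417 and Gm46527 with ratios of 3.04, 3.20 and 3.20, and just outside it Gm46827, Gm36677 and Gm27188 with 2.97, 2.96 and 2.95. Among the falling genes 1700109G14Rik, Gm31221 and Gm41286 stood inside at 3.05, 3.17 and 3.26, and Gm41640, Gm10030 and Gm40387 outside at 2.93, 2.88 and 2.84.

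Start windows were found in RefSeq for 45 rising genes (55 windows) and 22 falling genes (25 windows). At least 10 CpGs stood in 27.3% of rising and 20% of falling windows, against 49.2% of the windows of other predicted models at the same level and 43.5% of all 32851 windows. Median CpG counts were 5 and 3, against 9 and 7. The photoreceptor homeodomain motif TAATCC was found on either strand in 10.9% of rising and 12% of falling windows, against 7.06% of all windows. The E-box CAGATG was found in 27.3% and 16%, against 17.2%. The nuclear receptor motif AGGTCA was found in 10.9% and 24%, against 16.3%, and the Maf motif TGCTGA in 23.6% and 28%, against 19.5%. For TAATTA, a homeodomain motif that shares TAAT with TAATCC, the shares were 3.64% and 12%, against 5.29%. For TATAAA they were 9.09% and 16%, against 13.6%. In the windows of other predicted models at the same level, TAATCC stood in 8.18% and CAGATG in 15.3%. AGGTCA stood in 15.1% of those windows, TGCTGA in 18.6%, TAATTA in 4.28% and TATAAA in 10.5%. The median share of G and C bases was 50.3% in rising and 47.3% in falling windows. It was 54% in those of other predicted models and 52.7% in all windows. The shares in rising and falling windows rest on few windows, some of them of the same gene, and were not tested.

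A chosen list of named noncoding RNAs, which the rule could not pick, was counted as well. It does not hold every such RNA, and Foxo6os, called higher above, is not in it. Of 54 listed, 45 were tested, 0 were called higher and 5 lower in limma, against 6.79% and 5.21% of all genes tested. Vax2os, an antisense RNA of the eye homeobox gene Vax2, had 7925, 5623 and 6982 normalized reads in KO and 19752, 21346 and 20812 in wild type, with a log2 fold change of -1.61 ± 0.11 (SE, limma adjusted p = 9.52e-07). Every control lay far above every KO library. Mir17hg, the host of a microRNA cluster, had 60.9, 37.3 and 38.5 in KO and 81.3, 116 and 92.2 in wild type (limma adjusted p = 0.013). Snhg5, Mir124-2hg and Zfas1 had log2 fold changes of -0.39 ± 0.09, -0.49 ± 0.12 and -0.48 ± 0.12 (SE), with limma adjusted p-values of 0.02, 0.0206 and 0.0206. The count was 1 without KO 3, 1 without WT 2, 3 without WT 3 and 12 without KO 1. Beside the count of 0, unadjusted p-values under 0.05 gave 2 higher RNAs, edgeR and DESeq2 called 1 each and limma-voom 2, and with values scaled to total reads 1 was higher and 5 lower.

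Some markers of other cells moved with the groups, against 6.79% of all genes tested called higher and 5.21% lower. Of 16 microglia and macrophage markers 12 were called higher (their sum was 8476 to 9258 normalized reads in KO and 5603 to 6188 in wild type). Of 18 astrocyte and gliosis markers 14 were higher and 1 lower (sums of 53416 to 57628 against 30504 to 31718). The lower one was Lcn2, a secreted protein of reactive glia (limma log2 difference -0.89 ± 0.19 SE, adjusted p = 0.00823). All 5 red blood cell markers were higher (5661 to 8293 against 1467 to 2232). Of 20 retinal pigment epithelium markers 11 were lower and 1 higher, and their sums overlapped between the groups (48818 to 53091 against 50459 to 56345). Rpe65 had 65.5, 41.5 and 162 normalized reads in KO and 427, 409 and 221 in wild type, and the higher one, Serpinf1 (limma log2 difference 0.42 ± 0.12 SE, adjusted p = 0.041), lost its call without any 1 library other than KO 2. Rlbp1, Otx2 and Trpm1, which also stand in the Müller glia or bipolar lists, held most of the pigment epithelium sums. Their means were 26676, 10310 and 9713 normalized reads in KO and 27139.5, 9036 and 7989 in wild type. The median log2 fold change of the 20 markers was -1.02. Of 15 cone markers 8 were higher and 1 lower (sums of 822937 to 856902 against 223398 to 227581). The lower one was Opn1mw, the cone opsin for middle wavelengths, at 9539, 9948 and 9370.1 normalized reads in KO and 22746, 24313 and 24211 in wild type (limma log2 difference -1.30 ± 0.06 SE, adjusted p = 5.64e-08). Opn1sw, Gnb3 and Ccdc136 held most of the cone sums in KO. Their means were 416374, 163123 and 83819 normalized reads in KO and 43705, 38507.5 and 10982 in wild type. Arr3, Gnat2, Grk1, Pde6c, Pde6h and Thrb were not called. Of 15 rod markers 10 were lower. Of 12 Müller glia markers 5 were higher and 2 lower, with overlapping sums, and of 14 endothelial and pericyte markers 3 were higher. Of 14 bipolar markers and of 20 amacrine, horizontal and ganglion markers 1 each was higher and 1 lower. Lens markers summed to 12583 in WT 3 and to at most 4022 in the other libraries. Without WT 3 no ratio of a falling gene moved by over 1.5 times, but that of the rising Gm14320 did. The called neighbours of falling genes went from 10 to 6 without it. The part of these markers in the rising and falling genes was not tested, and in whole retina fewer cells of a type and less RNA per cell cannot be told apart.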

How the data were processed

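Polyadenylated RNA of 1 retina per library was turned into cDNA (low-input kit), fragmented, ligated and amplified for 15 cycles, per the labels' protocols; no molecular identifiers are described. The submitters' processing notes list STAR 2.7.3a, HTSeq 0.12.4 and DESeq2 besides DRAGEN, SAMtools 1.9 and cutadapt 3.0, and the builds mm10 and GRCm38; which tool did what, and whether counting used strand, is not stated in them. The authors' deposited table holds a per-library signal that behaves as gene reads scaled by a single factor in each library. The deposited log2 fold changes, Wald score and p-values come from DESeq2, per the file headers. Of 166478 values above 0, 100% came out as whole reads within 0.01 reads after division by the worth of 1 read.

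The 90 genes and the gene lists were chosen with earlier results of these data known. The 20277 genes at 10 or above in 3 or more libraries were tested with limma-trend 3.58.1 (R 4.3.3) on log2(value + 1), so that differences of low genes are understated; tests are two-sided, Benjamini-Hochberg adjusted over all 20277, and genes under 0.05 were called (2432, 12.0%). Fold changes of named genes are ratios of group means. A named neighbour is the nearest RefSeq gene (GRCm38.p6) on either side within 100 kb whose symbol has neither form; overlapping genes were counted apart. All 49997 symbols matched the RefSeq table, strand was known for 81 of the 90, and sequences are RefSeq's. Each of the 90 genes is named, with values per library for the 8 largest ratios and 8 highest levels in each direction and for genes over or within 10 kb of a called named gene. On simulated counts of the 20277 genes with 200 changed, this test recovered 46.3%, 82.1% and 96.8% of genes changed 1.5-, 2- and 4-fold, with 3.36% false calls. That was a single draw with far fewer changed genes than the 2432 called in the data, so these shares may differ for the data. Alternatives were edgeR 4.0.16, DESeq2 1.42.0, limma-voom, other pseudocounts, filters, thresholds and scalings, a replicate block and fits without each library.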

Additional observations from a re-analysis of the deposited data

How the results depend on the processing

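The 2432 changed genes became 1189 at an adjusted p under 0.01, 4650 with limma-voom, and 1313 to 3247 with 1 library left out (1313 without WT 3, 1470 without WT 2, 1497 without KO 3). They split into 1376 higher and 1056 lower, and into 2006 and 812 with scaling to total reads. The 18 called neighbours of rising genes became 28 with limma-voom, 11 within 25 kb and 16 to 21 with 1 library left out. The 10 of falling genes became 5 at an adjusted p under 0.01, 16 with limma-voom (14 lower, 2 higher) and 6 to 13 with 1 library left out, the 13, without KO 1, with 3 higher. The 5 named noncoding RNAs became 1 at an adjusted p under 0.01, 10 with limma-voom and 1 to 12 with 1 library left out. The calls over rising and falling genes (22 and 3) stayed within 1.5 times under all of these. Limiting neighbours to protein-coding genes, chosen after seeing the data, left 17 and 9.

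The rule on the genes themselves gave 106 rising genes at a level of 10 and 28 at 100, against 60, and 98 at a ratio of 2. It gave 10 falling genes at a level of 100, against 30, and 83 and 16 at ratios of 2 and 4. All 60 and 30 remained with TMM factors, and 60 and 29 with scaling to total reads, which left out 1700109G14Rik. With 1 library left out the ratio moved by over 1.5 times in 18 of the 90 genes, each named above with its value.

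Replicate numbers did not pair the samples: deviations of same-numbered libraries correlated at -0.18, -0.13 and -0.01. With a replicate block 1624 genes, 17 and 7 neighbours, 20 and 3 overlapped genes and 2 named noncoding RNAs were called. At these depths a count of 0 allows up to 3 reads, so wild-type levels near 0 set lower bounds only.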
